A study of Solanum lycopersicum with 12 samples.

Results

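The 100 gene models described here were those most strongly raised in tomato (Solanum lycopersicum) leaves by salinity, by heat and by salinity and heat together. They were chosen by their measured values out of 17055 gene models with a mean normalized count of at least 50, in a table of 34075. A normalized count is a count divided by its library's size factor, which removes differences in sequencing depth. For each stress the log2 of the group mean plus 10 was set against the same value in control, and the 100 gene models with the largest smallest difference were taken. A total of 733 gene models had all 3 differences at or above 0.5. The 12 libraries were 3 each of untreated control leaves, leaves under salinity, leaves under heat, and leaves under both, called the combination here. The labels give neither the salt dose, the temperature, the duration, the cultivar nor the number of plants behind a library, and do not say whether libraries of a group came from separate plants, so the spread between them may be partly technical.

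As background, salinity limits water uptake and loads leaves with sodium and chloride, and plants answer largely through abscisic acid and osmotic adjustment. Heat unfolds proteins and fluidizes membranes, and is answered through heat shock factors and chaperones. Both disturb photosynthesis and produce reactive oxygen, so some genes are known to respond to either. None of the 34075 identifiers matched the RefSeq gene table used here, and the deposited table pairs them with no names. No gene name, function, promoter or protein is therefore given for any of the 100, gene lists by function and leaf marker genes were not analysed here, and few identifiers are printed.

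Total counts lay between 56281339 and 78370751 per library. The 100 gene models took up 0.0590% ± 0.0182 of a control library (mean ± SD, n = 3 in every group). This share was 0.171% ± 0.105 under salinity, 0.374% ± 0.0822 under heat and 0.807% ± 0.126 under both. The gene models were chosen for a rise under each stress, so nothing is read from the rise in this share. The 3 most abundant held 54.7% of the summed normalized counts of the 100 and weigh heavily in it. In whole leaves, a change in the share of a cell type and a change in RNA per cell cannot be told apart.

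One salinity library stood apart from the other two across these gene models. Salinity library 1 was the highest of its group in 76 of the 100, against 39.4% of the 17055. In 38 of the 100 it was at least 2 times higher than both other salinity libraries. That held for 2.36% of the 17055, for 9.79% of the 633 other gene models with all 3 differences at or above 0.5, and for 8.73% of the 951 other gene models with as large a salinity difference. It had 59190063 counts and 22589 gene models with a count, while salinity 2 and 3 had 67267531 and 72608877 counts and 21843 and 22330 such gene models. Over the 17055, its correlation with the mean of the other salinity libraries was 0.971 (0.983 and 0.984 for salinity 2 and 3). With the mean of the combination libraries it was 0.917 (0.904 and 0.911), with that of heat 0.830 (0.811 and 0.830) and with that of control 0.907 (0.916 and 0.931). The part of this library's treatment, depth or RNA in the results was not tested. The counts that moved most without it are given beside the results below.

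The choice fixed that all 100 were higher than control under each stress, so these differences are a description and carry no test. On the log2(mean + 10) scale the salinity difference ranged from 1.18 to 4.55 with a median of 1.61, a 3.05-fold difference. The heat difference ranged from 1.17 to 6.42 with a median of 1.87, or 3.66-fold. The combination difference ranged from 1.18 to 8.44 with a median of 2.54, or 5.80-fold. The medians over the 17055 were 0.05, 0.02 and -0.04. A log2 difference of at least 2 was seen for 29 under salinity, 45 under heat and 75 under both, and for 13 in all 3. Differences of at least 4 numbered 2, 7 and 20. Without salinity 1, with the same 100 gene models, 14 reached 2 under salinity, 0 reached 4 and 6 reached 2 in all 3.

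The last 3 gene models taken had smallest differences of 1.20, 1.18 and 1.17, and the first 3 left out had 1.16 each. The list thus has no gap at its edge.

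**Figure D1:**
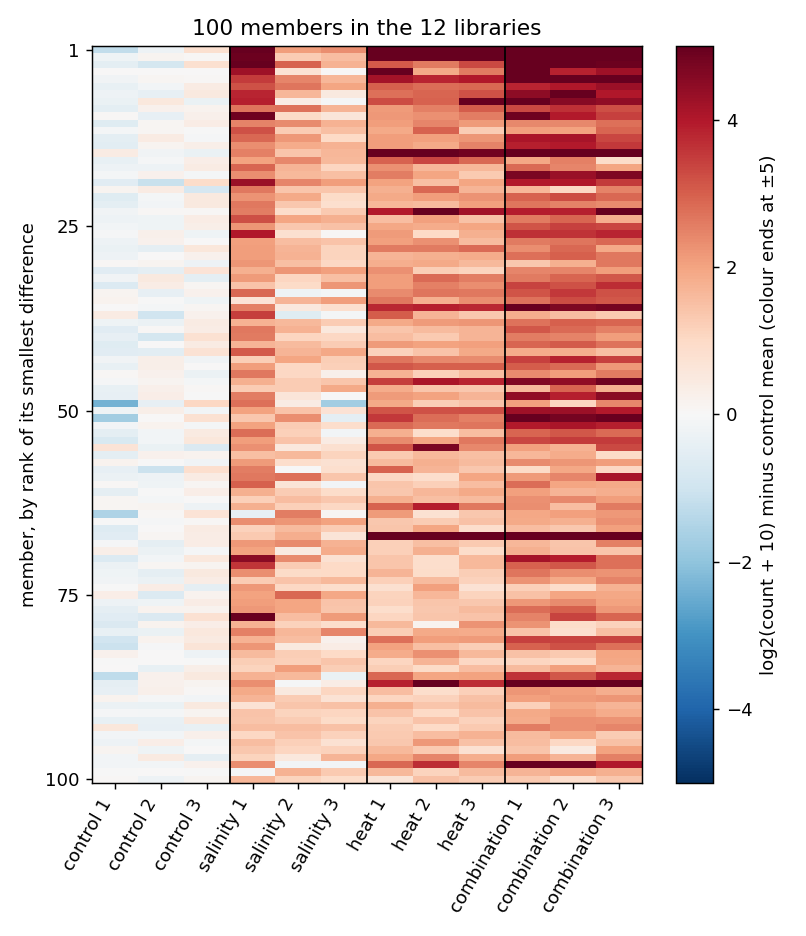
Each row is 1 of the 100 gene models, ordered by its smallest difference from control, and each column is 1 of the 12 libraries; colour gives log2(normalized count + 10) minus the same value of the control mean. The colour is strongest in the 3 combination columns, and within salinity the first column is darker than the others, being the highest of the 3 in 76 rows.

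The libraries of each stress were also set against those of control. All 3 combination libraries lay above all 3 control libraries in 100 of the 100, all 3 heat libraries in 99 and all 3 salinity libraries in 79. Over the 17055 the shares were 23.1%, 29.8% and 31.3%, and since the choice used these contrasts nothing is read from the excess. In 78 gene models all 9 stress libraries lay above control. Neither this number nor those in the rest of this paragraph were counted over the 17055, so nothing is read from them. Salinity 1 failed to exceed the highest control library in 2, salinity 2 in 9 and salinity 3 in 17. Without salinity 1, the other 2 salinity libraries lay above control in 80, which is easier to meet with 2 libraries than with 3.

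The median over the 100 of the difference from the control mean was 2.18 in salinity 1, 1.40 in salinity 2 and 1.12 in salinity 3. In heat the 3 library medians were 1.92, 1.89 and 1.76, and in the combination 2.61, 2.75 and 2.62. The median coefficient of variation within a group was 46.9% in salinity and 32.4% in control. Heat, at 22.2%, and the combination, at 18.8%, varied less. Over the 17055 it was 18.3%, 15.5%, 14.2% and 17.3% in the same order. Among the controls, library 3 was the highest in 57 of the 100, against 38.7% of the 17055.

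**Figure D2:**
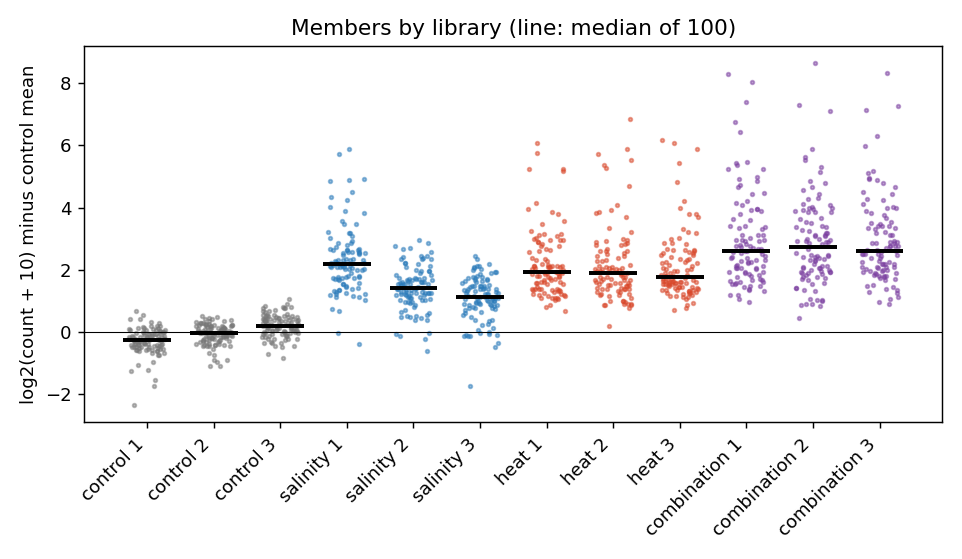
Points are the 100 gene models in each library, as log2(normalized count + 10) minus the control mean, and lines are medians. The combination medians lie between 2.61 and 2.75, the heat medians between 1.76 and 1.92, and the salinity medians run from 1.12 to 2.18.

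Without salinity 1 the median salinity difference was 1.34 (2.54-fold) in place of 1.61. It stayed at or above 0.5 in 88 gene models and at or above 1 in 76, and was above 0 in 96. The 38 gene models in which salinity 1 was at least 2 times both others had a median salinity difference of 1.88, and of 0.97 without that library, with 26 still at or above 0.5. The other 62 moved from 1.52 to 1.44, and 62 of these 62 stayed at or above 0.5. A larger fall in the 38 follows from how they were picked and is only a description. The 38 had median differences of 2.07 in heat and 2.97 in the combination, against 1.74 and 2.30 for the 62.

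**Figure D3:**
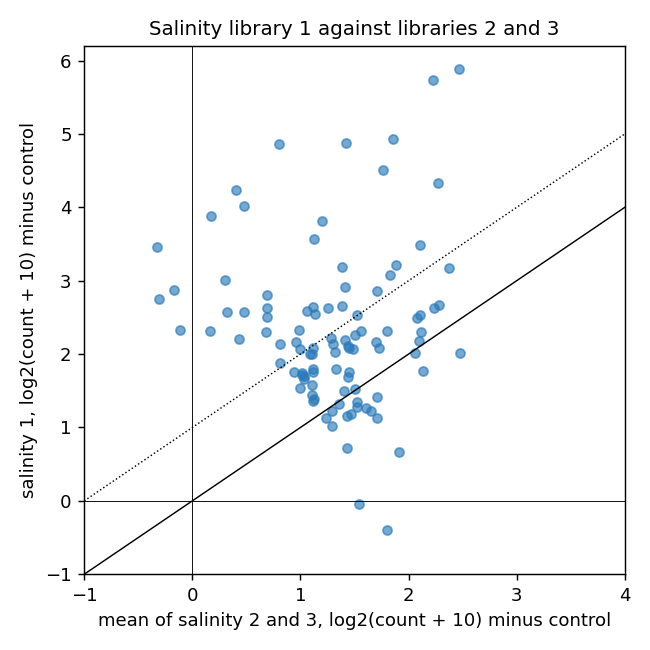
Each point is 1 of the 100 gene models, with the mean of salinity libraries 2 and 3 on the x axis and salinity library 1 on the y axis, both as log2(normalized count + 10) minus control. The solid line marks equal values and the dotted line a log2 excess of 1. Many points lie above the dotted line, and the 100 have a median of 2.18 in salinity 1 and of 1.34 in the mean of the other two libraries.

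The gene model at the head of the list, Solyc01g103920.3.1, shows this pattern in full. Its normalized counts were 10.4, 30.2 and 74.1 in control, 2554, 198 and 235 in salinity, 3265, 5610 and 3485 in heat, and 15342, 19383 and 15572 in the combination. The groups did not overlap, but salinity 1 alone came close to the heat libraries. The salinity difference of 4.38 on the log2(mean + 10) scale became 2.23 without salinity 1. Solyc01g102960.3.1, second on the list, stood at 17.0, 24.2 and 23.0 in control and at 917, 65.5 and 82.5 in salinity. It reached 1170, 1663 and 1357 in heat and 8224, 4321 and 4831 in the combination. Again 1 salinity library was far above the others, and the salinity difference of 3.54 became 1.42 without it.

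Salinity 1 held over 50% of the summed salinity counts in 43 of the 100, against 3.59% of the 17055. An example with high counts, picked after its values were seen, was Solyc02g082920.4.1, with 12652, 830 and 659 normalized counts in salinity. Some of the others were poorly expressed. Solyc04g071780.3.1, named after its values were seen, had 0 counts in all 3 control libraries. It had 178, 6.39 and 0 normalized counts in salinity, and 367, 27.4 and 50.5 in heat. The combination libraries were at 369, 134 and 178. Salinity 1 had 96.5% of its summed salinity counts. A total of 6 of the 100 had a control library with 0 counts, where 3 counts equal between 2.23 and 4.80 normalized counts depending on the library.

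To read the rise in libraries that had no part in the choice, the same rule was applied to 8 libraries and its 100 gene models were read in the replicate number left out, with 1 library per group and therefore no test. With replicate 1 left out, the median differences in the left-out libraries were 1.79 for salinity, 1.66 for heat and 2.15 for the combination, and 95, 100 and 98 of the 100 were above control. With replicate 2 left out they were 1.18, 1.91 and 2.76, with 92, 97 and 100 above control. With replicate 3 left out they were 0.68, 1.45 and 2.19, with 76, 94 and 99 above control. Over all gene models past the mean limit, the medians in the left-out libraries lay between -0.06 and 0.05. The share of those gene models above control was not counted, so nothing is read from the numbers above control.

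Salinity gave the fewest gene models above control in each of the 3 cases, which is only a description. In the left-out replicate 3, 58 of the 100 reached a salinity difference of 0.5, where 21.7% of the 17055 did. The median of those 100 in the 8 libraries that chose them had been 2.11. In the left-out replicate 1 and 2, 90 and 81 reached 0.5. The shares over the 17055 were 32.6% and 33.2%. For heat, 98, 90 and 88 reached 0.5 in the left-out replicate 1, 2 and 3, against 22.3%, 31.2% and 27.1% of the 17055. For the combination, 98, 98 and 96 did, against 22.4%, 24.1% and 23.5%.

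The rule set a floor under each stress but not an order among them. The combination had the highest of the 3 stress means in 79 gene models, heat in 12 and salinity in 9. Salinity had the lowest in 61, heat in 33 and the combination in 6. The commonest order was salinity below heat below combination, in 53, followed by heat below salinity below combination, in 26. Without salinity 1, the combination was highest in 82 and salinity lowest in 80.

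The combination stood above both single stresses in 54.0% of the 633 other gene models with all 3 differences at or above 0.5, and in 18.9% of the 17055. Its log2 difference exceeded the larger single one by a median of 0.65 over the 100, with a range of -1.19 to 2.55. The median of the same quantity over the 17055 was -0.51. The combination stayed below the sum of both log2 differences in all but 6 of the 100, by a median of -0.98. It exceeded that sum in 12.01% of the 633 and in 47.4% of the 17055. Without salinity 1 the combination lay above the sum in 29 of the 100, with a median of -0.51, and in 21.8% of the 633. On the linear scale the combination exceeded the sum of both increases in 53, against 33.3% of the 633 and 40.8% of the 17055. Without salinity 1 it did so in 61, against 39.2% of the 633 and 41.3% of the 17055. The median log2 excess over the larger single stress was 0.75 without salinity 1, in place of 0.65. The control values and both single differences enter these sums and also chose the gene models, so the departure from additivity was not tested.

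The order among the stresses was tested by edgeR's quasi-likelihood test over 20717 gene models, with Benjamini-Hochberg adjustment over all of them; all 100 were among those tested, and an adjusted p under 0.05 is described as called. These contrasts hold no control library, but the group means they compare also entered the choice. They are therefore not fully independent of it. Log2 fold changes in these tests come from TMM-scaled libraries.

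In the combination, 46 of the 100 were called higher than in salinity and 1 lower. Over the 20717 the shares were 24.4% higher and 20.1% lower. The median log2 fold change was 0.91 for the 100 and 0.08 for all, and it was positive in 87. Without salinity 1, 64 were called higher and 0 lower, with 23.9% and 20.05% of the 20717. With all libraries, the remaining 53 were not called, which does not show that they were equal.

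The largest excess over salinity belonged to Solyc01g008510.3.1. It had 31.3, 55.4 and 69.0 normalized counts in control, 144, 211 and 85.8 in salinity, 3345, 2833 and 4209 in heat, and 10525, 9802 and 8767 in the combination. Salinity moved it little compared with heat, and its 4 groups did not overlap. The log2 fold change of the combination against salinity was 6.12 (SE 0.34, adjusted p 8.94e-07 by edgeR's quasi-likelihood test).

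Solyc11g020330.1.1 was close to the floor in control, at 0, 6.05 and 5.11, and in salinity libraries 2 and 3, at 3.20 and 7.60. Salinity 1 had 58.0 normalized counts. Heat brought it to 189, 554 and 168 and the combination to 558, 630 and 468, so that heat and combination overlapped and salinity 2 lay among the controls. Against salinity the combination gave a log2 fold change of 4.61 (SE 0.79, adjusted p 0.000766 by edgeR's test). Against heat the value was 0.81 (adjusted p 0.337, also by edgeR). Its salinity difference from control, 1.26, was 0.17 without salinity 1.

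The single gene model called lower in the combination than in salinity was Solyc02g084950.3.1. Its counts were 401, 216 and 377 in salinity and 183, 119 and 192 in the combination, with 44.4, 47.4 and 92.0 in control and 156, 255 and 246 in heat. The salinity and combination libraries did not overlap, although the lowest salinity and the highest combination library were close. The log2 fold change was -0.96 (SE 0.34, adjusted p 0.0360 by edgeR's test). The call was lost without salinity 1, at an adjusted edgeR p of 0.101, and without salinity 3 and each combination library.

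**Figure D4:**
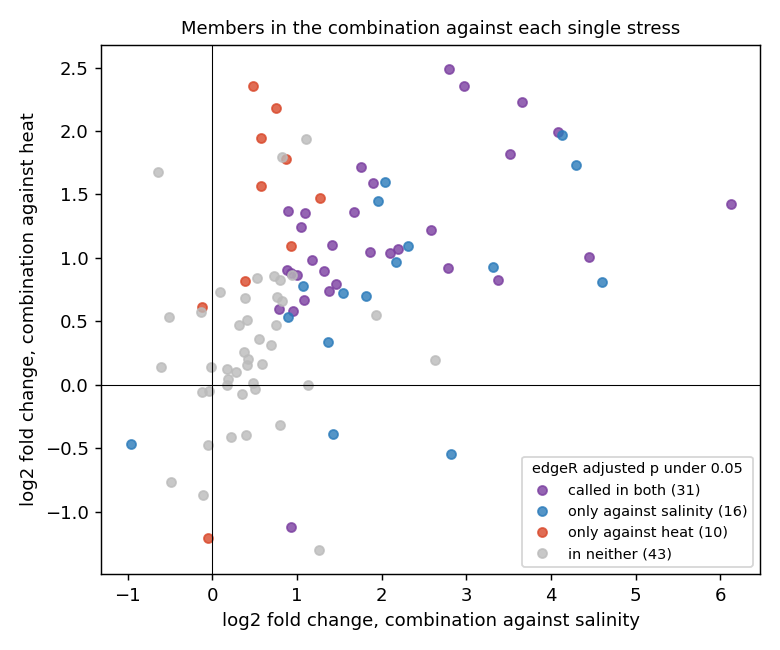
Each point is 1 of the 100 gene models, with the log2 fold change of the combination against salinity on the x axis and against heat on the y axis; colours mark calls at an adjusted edgeR p under 0.05. Most points lie to the upper right of 0: 31 were called in both contrasts, 16 only against salinity, 10 only against heat and 43 in neither.

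Against heat, 39 of the 100 were called higher in the combination and 2 lower, where 17% and 23.4% of the 20717 were. The median log2 fold change was 0.76, and it was positive in 82. Without heat library 2 the numbers were 22 and 0, while those over the 20717 fell to 8.36% and 15.3%. Without salinity 1, which enters this contrast only through the shared estimate of spread and the scaling, they were 53 and 2, with 18.5% and 24.6% of the 20717.

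Solyc05g009500.3.1 rose most over heat. It had 659, 816 and 654 normalized counts in control, 3574, 2181 and 2033 in salinity, 4222, 2819 and 1795 in heat, and 19044, 14400 and 18421 in the combination. Salinity and heat overlapped, and the combination libraries lay far above both. The log2 fold change of the combination was 2.49 against heat (SE 0.30, adjusted p 0.00031) and 2.79 against salinity (SE 0.30, adjusted p 5.35e-05) by edgeR's test. The single stresses did not separate, with a log2 fold change of heat against salinity of 0.30 and an adjusted edgeR p of 0.361.

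Solyc03g025670.3.1 was next, at 96.5, 146 and 239 in control and 439, 306 and 516 in heat. The combination libraries had 3029, 2549 and 1145, and the salinity libraries 3890, 860 and 279, which overlapped with heat and with the combination. The combination exceeded heat by a log2 fold change of 2.36 (SE 0.72, adjusted p 0.0211 by edgeR's test). The call was lost without heat library 1 or 2 and without combination library 1, where edgeR gave adjusted p-values of 0.0560, 0.0784 and 0.0523.

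Lower in the combination than in heat were Solyc10g006150.3.1 and Solyc02g030300.3.1. The first had 904, 1207 and 848 in heat, 446, 677 and 212 in the combination, 468, 616 and 357 in salinity and 80.9, 105 and 141 in control. Its combination and salinity libraries overlapped below the heat libraries, with a log2 fold change against heat of -1.20 (SE 0.35, adjusted p 0.0172 by edgeR's test). The second had 1271, 2468 and 1021 in heat, 811, 475 and 993 in the combination, 547, 365 and 330 in salinity and 166, 168 and 129 in control. The lowest heat and the highest combination library were close. Its log2 fold change against heat was -1.12 (SE 0.34, adjusted p 0.0196 by edgeR's test). Both calls were lost without heat library 2, at adjusted edgeR p of 0.0681 and 0.121. That of the second was also lost without combination library 2, at 0.0835.

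By the calls of both contrasts, 30 gene models were higher in the combination than in either single stress, where 2.52% of the 20717 were. The 3 stress means also entered the choice, so nothing is read from the excess over this share. The 30 had median differences from control of 1.54 under salinity, 2.09 under heat and 3.43 under both. A further 15 were called higher than in salinity but not called against heat, a class that held 13.8% of the 20717, with medians of 1.57, 2.59 and 3.41. In 9 the combination was called higher than heat but not against salinity, as in 8.96% of the 20717, with medians of 2.38, 1.36 and 2.96. The largest class, with 43, was called in neither, like 33.3% of the 20717, and had medians of 1.60, 1.58 and 1.94. It is defined by the lack of a call, so no likeness of the stresses is read from it. The remaining 3 were the gene models with a lower call. Without salinity 1 the 4 classes held 46, 17, 7 and 28 of the 100, and 2.99%, 12.4%, 9.98% and 32.2% of the 20717. Salinity 1 was at least 2 times both other salinity libraries in 3 of the 30, 10 of the 15, 6 of the 9 and 19 of the 43.

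Heat and salinity were further compared directly. Heat was called higher than salinity in 30 of the 100 and lower in 5, against 37.9% and 30.5% of the 20717. With DESeq2 size factors the split was 24 and 7, and that over all was 35.0% and 33.7%. With total counts and no scaling factor it was 42 and 1, where all gene models moved too, to 46.1% and 19.1%. Without salinity 1 it was 42 and 2, with 37.4% and 30.2% over all. With the replicate number as a block it was 26 and 1, with 37.0% and 29.5% over all. The 30 had median differences from control of 1.51 in salinity and 3.03 in heat. The 65 without a call had 1.71 and 1.60.

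The gene models with the largest excess of heat were again Solyc01g008510.3.1 and Solyc11g020330.1.1, with log2 fold changes of 4.69 (SE 0.32, adjusted p 1.37e-06) and 3.80 (SE 0.77, adjusted p 0.000856) by edgeR's test. The largest excess of salinity was found for Solyc03g120420.3.1, which had 1721, 153 and 236 normalized counts in salinity and 110, 137 and 143 in heat. Control libraries held 28.7, 24.2 and 86.9 and combination libraries 310, 573 and 417. Its log2 fold change of heat against salinity was -2.32 (SE 0.75, adjusted p 0.0148 by edgeR's test) and fell to -0.48 without salinity 1 (adjusted edgeR p 0.358). Solyc04g077650.3.1 had 2822, 750 and 597 in salinity, 562, 386 and 545 in heat, 84.8, 55.4 and 253 in control and 2164, 2224 and 1588 in the combination. The value was -1.36 (SE 0.57, adjusted p 0.0474 by edgeR's test) and -0.32 without salinity 1 (adjusted edgeR p 0.537). Of 18 alternatives, 2 took the call from the first, namely leaving out salinity 1 and the replicate block (adjusted edgeR p 0.0543), and 9 took it from the second, whose adjusted p ran from 0.0185 to 0.537 over the 18.

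**Figure D5:**
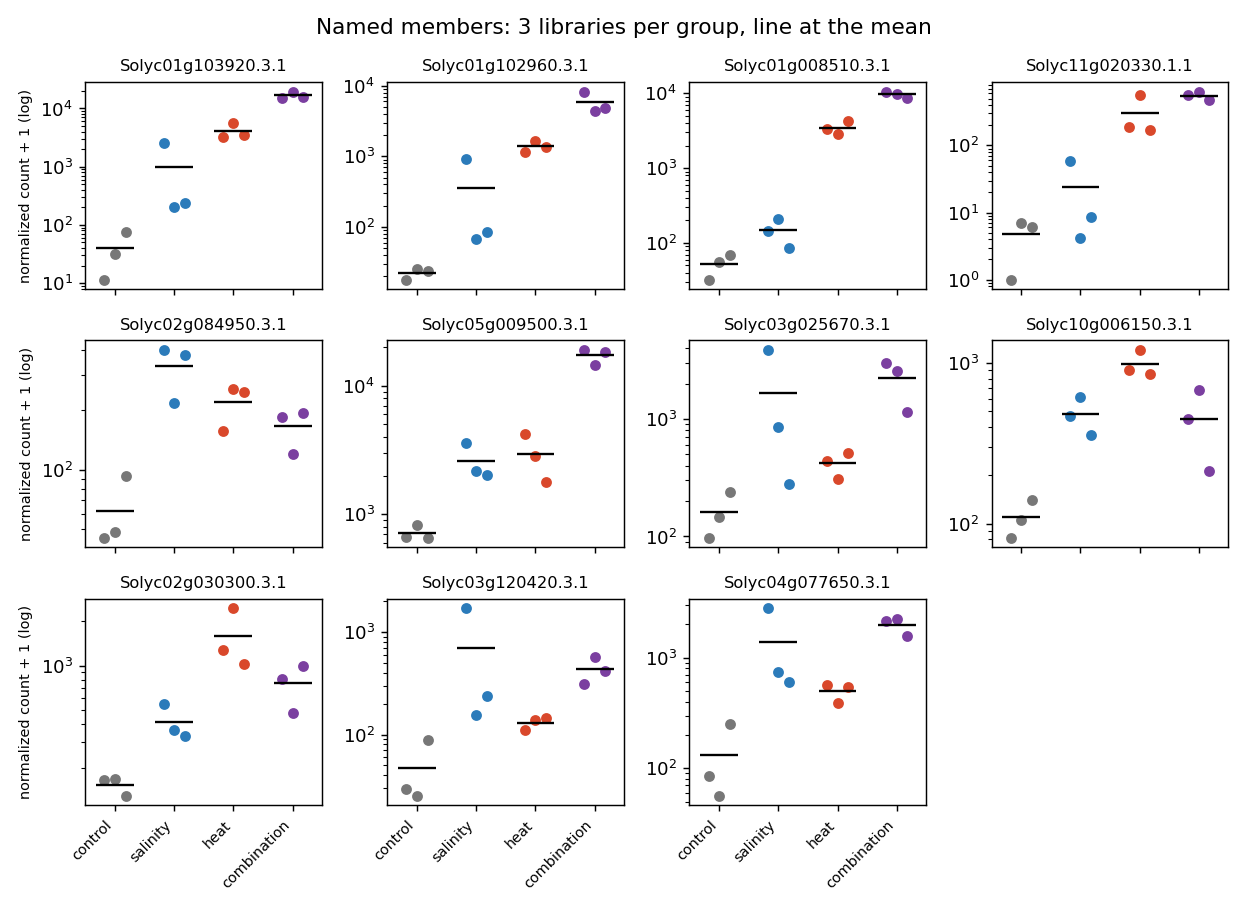
Normalized counts plus 1 on a log axis in the 3 libraries of each group for 11 gene models, with a line at the group mean plus 1. In Solyc01g103920.3.1, Solyc01g102960.3.1, Solyc11g020330.1.1 and Solyc03g120420.3.1 the first salinity point lies far above the other two. In Solyc05g009500.3.1 it is also the highest, but the salinity points lie closer together, and the combination mean is 24.4 times that of control.

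Levels spanned a wide range. The mean over the 12 libraries ran from 50.9 to 82277 normalized counts with a median of 411, against 684 for the 17055, and 31 of the 100 reached 1000. In control the median was 79.0, against 634 for the 17055. Gene length was not used here, so levels of different gene models are compared as counts only. The 3 most abundant gene models held 54.7% of the summed normalized counts of the 100.

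By the chromosome number in their identifiers, the 100 were spread over chromosomes 1 to 12, from 3 on chromosome 6 to 13 each on chromosomes 1 and 3. As a share of the gene models past the mean limit this was between 0.202% on chromosome 6 and 0.812% on chromosome 9. Only 1 pair of the 100 stood side by side in the order of identifiers in the table, and 4 pairs lay within 10 steps. The number of such pairs among 100 gene models drawn at random was not worked out.

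The side-by-side pair, Solyc09g083435.1.1 and Solyc09g084440.2.1, was among the abundant gene models. The first had 2365, 5232 and 6349 normalized counts in control, 15333, 13469 and 5375 in salinity, 31764, 19751 and 20599 in heat, and 49868, 48423 and 49069 in the combination. The second had 204, 715 and 1209 in control, 1820, 3608 and 500 in salinity, 8435, 5037 and 4135 in heat, and 22501, 19853 and 22364 in the combination. In both, control 1 was the lowest control library, heat 1 was the highest heat library, and salinity 3 lay among the controls, so that salinity and control overlapped. How the authors treated reads shared between similar gene models is not given in the sources used here, so the split of reads between such neighbours is uncertain.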

How the data were processed

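The authors deposited whole-number counts per gene model for 12 tomato leaf libraries, without normalization; the table's name refers to ITAG release 4.0. Per the submitters' processing notes, Trimmomatic 0.33 and Bowtie2 2.3.4 were used. The counting program, strand setting, filters and genome build are not given in the sources used here. Among counts of 1 to 20, 66.0% to 69.8% per library were even, as when both mates of a pair are counted. No library of a group repeated another within counting noise, by a chi-square check for libraries deposited more than once.

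Size factors were medians of ratios over 19662 gene models with a count in every library. Members were chosen as described, with a pseudocount of 10, in Python 3.11.15. The members and comparisons were chosen with earlier results of these data known. The comparisons among stresses used edgeR 4.0.16 in R 4.3.3 on the deposited counts: filterByExpr, TMM factors and a quasi-likelihood fit of 4 groups to all 12 libraries. The SE was taken as the size of the log2 fold change over the square root of its F statistic. The fit was also run on simulated counts, for the combination against salinity only, with the spread set alike in all groups. Those counts held no library like salinity 1, so nothing about the results here is read from that run. Alternatives were other scalings, filters, DESeq2 1.42.0, a replicate block, fewer libraries, and other limits in the rule. Named gene models were to be those heading the list, those changing most among called ones without overlap, and neighbours; with no gene names, at most 2 per direction and comparison are named.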

Additional observations from a re-analysis of the deposited data

Results flagged for a closer look

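In 3 of the 100 gene models a stress alone put every library above every control library. Added to the other stress, the same stress put every combination library below every library of that other stress. In these 3 every combination library still lay above every control library. The same pattern was not counted over all gene models, so nothing is read from this number. Solyc02g084950.3.1 rose in heat alone, but adding heat to salinity gave a log2(mean + 10) difference of -0.96. In Solyc10g006150.3.1 salinity alone raised every library, and salinity added to heat gave -1.13. In Solyc02g030300.3.1 salinity added to heat gave -1.05. In Solyc02g084950.3.1 and Solyc02g030300.3.1 the nearest libraries of the groups compared were close. The difference between the effects was not tested, since the control values entered the choice of the gene models.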

How the results depend on the processing

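Of the 100 gene models, between 70 and 90 were chosen again with a pseudocount of 1 or 50, a mean limit of 10 or 200, group medians, or total counts, the last chosen after seeing the data; TMM scaling kept 94. Leaving out 1 library or 1 replicate number kept between 63 and 96, with 71 without salinity 1. The counts called higher kept within 1.5 times in every alternative with all libraries. With 1 library left out they ranged from 39 to 64 for the combination against salinity, from 22 to 53 against heat, and from 20 to 42 for heat against salinity. The small counts called lower moved more: combination against salinity 0 with total counts and 0 to 1 with a library left out, combination against heat 1 with the groups compared alone and 0 to 2 with a library left out, and heat against salinity 1 with total counts, 8 with DESeq2 and 2 to 8 with a library left out. The causes were not tested. With total counts the median log2 fold change over every gene model tested went from 0.08 to 0.50 for the combination against salinity and from 0.15 to 0.58 for heat against salinity. With the replicate number as a block, 45, 37 and 26 were called higher and 1, 2 and 1 lower in the 3 comparisons in the order above. Deviations of same-numbered libraries correlated between -0.48 and 0.35 (18 pairs), so the numbers were not taken to pair the libraries. Without salinity 1, an alternative added after seeing the data, 82 had their highest mean in the combination, 80 their lowest stress mean in salinity, and the median salinity difference was 1.34; 29 lay above the sum of both log2 differences, 14 and 0 had a salinity difference of at least 2 and 4, 6 had all 3 of at least 2, 46 were called higher in the combination against both single stresses and 28 against neither. DESeq2 gave no adjusted p for Solyc01g103920.3.1. Calls of named gene models lost under some alternatives kept their sign in all of them.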
